A study of Mus musculus with 6 samples.

Results

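The low- and high-affinity receptors for immunoglobulin G (IgG) and the signalling chain they share were followed in gonadal white adipose tissue (gWAT), the fat pad beside the reproductive organs. The group was set by name as 5 genes, the Fc gamma receptors Fcgr1, Fcgr2b, Fcgr3 and Fcgr4 and the common gamma chain Fcer1g. All 5 were found by their NCBI gene identifiers among the 19790 genes of the deposited read-count table. RNA was sequenced from male mice labelled wild-type C57BL/6, 3 on a normal chow diet (NCD) and 3 on a high-fat diet (HFD), each for 8 weeks. The labels put the start of feeding at 6 weeks of age, and the methods of the study give another age for HFD. The study's methods describe bought C57BL/6 mice and also Tmem86a fl/fl mice without Cre as its wild type, and which of these were sequenced was not stated in the labels. Each library was from 1 mouse and from whole tissue.

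Fc gamma receptors sit on macrophages, monocytes, neutrophils, natural killer (NK) cells, mast cells and B cells, and bind IgG on coated particles or in immune complexes. Fcgr1, Fcgr3 and Fcgr4 encode activating receptors whose ligand-binding chain pairs with the dimeric gamma chain, which carries an activation motif (ITAM) read by Src family kinases and Syk and is needed for the receptors to stay on the cell surface. Fcgr2b encodes the only inhibitory receptor of the family, which carries its own inhibitory motif (ITIM) and recruits the lipid phosphatase SHIP1. Adipose tissue macrophages are the main cells known to express these genes in fat, and the product of Fcgr1, CD64, was used with CD11b to gate macrophages in the study's flow cytometry, which was not analysed here.

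All but Fcgr1 lie in a 273792 bp stretch of chromosome 1 (GRCm38, RefSeq annotation). Fcgr2b was at chr1:170960558-170976071 on the minus strand, Fcgr4 at chr1:171018926-171029761 on the plus strand, Fcgr3 at chr1:171051169-171065915 on the minus strand and Fcer1g at chr1:171229572-171234349 on the minus strand. Fcgr1 was at chr3:96282909-96293969 on the minus strand.

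The RefSeq promoters of the 5 genes (300 bases, 250 of them before the start site, GRCm38.p6) were searched on both strands for the core letters bound by PU.1, the macrophage transcription factor encoded by Spi1 (GAGGAA), and for the interferon gamma-activated site (TTCNNNGAA). The 3 activating receptors held the PU.1 letters, which 28.3% of 32851 promoters held, within 55 bases of a start site, and no match was found in the windows of Fcgr2b and Fcer1g. The Fcgr1 window also held the interferon gamma site, which 8.30% of promoters held. The 140 bases around these matches are printed 5′ to 3′ on the gene's strand with the matched letters in capitals. They are from chr3:96293960-96294099 (minus) for Fcgr1, chr1:171059394-171059533 (minus) for Fcgr3 and chr1:171018796-171018935 (plus) for Fcgr4. Both RefSeq starts of Fcgr3 searched lie inside the annotated gene, downstream of its outer end at 171065915. The core reads TTCCTC on this strand in each, and the longer capitals in Fcgr1 are the interferon gamma site.
Fcgr1: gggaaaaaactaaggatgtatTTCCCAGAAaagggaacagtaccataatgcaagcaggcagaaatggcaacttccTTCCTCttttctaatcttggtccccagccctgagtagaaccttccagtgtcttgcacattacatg
Fcgr3: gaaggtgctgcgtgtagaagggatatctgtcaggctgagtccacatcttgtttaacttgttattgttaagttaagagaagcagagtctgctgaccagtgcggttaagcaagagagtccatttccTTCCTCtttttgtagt
Fcgr4: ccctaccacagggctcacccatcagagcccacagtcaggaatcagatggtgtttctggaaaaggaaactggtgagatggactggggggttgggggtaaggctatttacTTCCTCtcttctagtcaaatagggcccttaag
Counted from the start site as 0, the PU.1 letters were at -55 to -50 in Fcgr1, -6 to -1 in Fcgr3 (-15 to -10 from a second RefSeq start) and -22 to -17 in Fcgr4, and the interferon gamma site of Fcgr1 was at -109 to -101. These are matches of letters, and binding was not measured.

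Libraries held between 49575113 and 66360046 counts. NCD replicate 1 stood apart, since 58.6% of its counts fell on 11 genes of seminal vesicle secretion, against 11.2% and 2.30% in NCD replicates 2 and 3 and at most 8 counts in an HFD mouse. It was also the lowest library for each of the 5 genes, so the changes of the 5 genes and the counts of calls in each list are given with and without it. Levels are CPM, each count relative to the size of its library, after scaling by edgeR's TMM factors (TMM-scaled CPM). Diets were compared with the quasi-likelihood test of edgeR, with p adjusted by Benjamini-Hochberg over 15241 genes and a threshold of 0.05.

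HFD feeding was accompanied by higher transcript levels of all 5 genes, from 4.56-fold for Fcgr2b to 8.91-fold for Fcgr1, and in none did the diets overlap. All 5 passed the threshold as higher on HFD, against 5.58% of all genes tested (7.47% in either direction and 1.9% lower). All 5 also passed without NCD replicate 1, against 10.7% of all genes (20.9% in either direction and 10.1% lower). Diets that do not overlap were common, with 20.5% of all genes higher in every HFD mouse than in every NCD mouse, and 27.9% without NCD replicate 1. The median log2 fold change of the 5 was 2.53, that of all genes -0.08. Without NCD replicate 1 these medians were 2.25 and 0.02. In whole tissue, more cells of a type and more RNA per cell cannot be told apart.

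**Figure D1:**
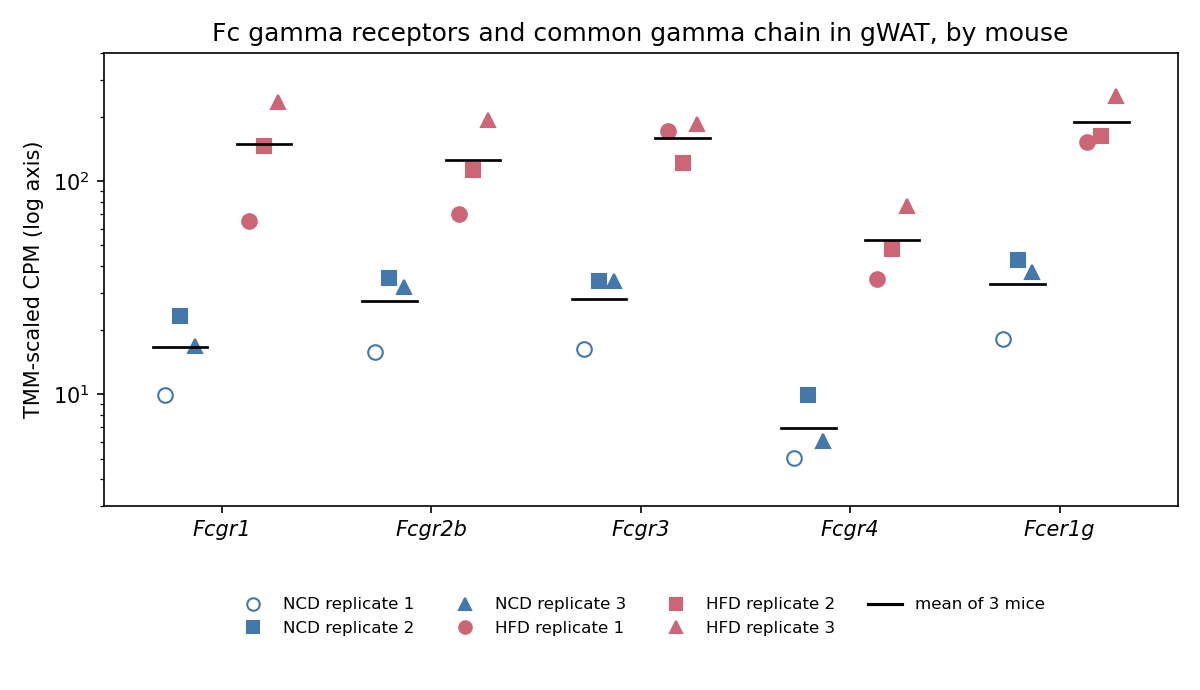
TMM-scaled CPM of the 5 genes in each mouse on a log axis, with NCD in blue, HFD in red, a symbol for each replicate and a line at the mean of 3 mice. Every HFD mouse lies above every NCD mouse for each gene, and NCD replicate 1 (open circle) is the lowest.

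Among the activating receptors, Fcgr1, the high-affinity receptor for monomeric IgG, was at 9.96, 23.3 and 17.0 TMM-scaled CPM in the NCD mice and at 65.4, 146 and 236 in the HFD mice, given in the order of replicates 1, 2 and 3 here and for the genes that follow. HFD replicate 3 was more than 3 times as high as HFD replicate 1, the widest spread of the 5 genes on HFD, yet the lowest HFD mouse was above the highest NCD mouse. Means were 16.7 ± 6.67 on NCD and 149 ± 85.5 on HFD (SD, n = 3), a log2 fold change of 3.16 (SE 0.561, edgeR adjusted p = 0.0320), and 2.91 without NCD replicate 1 (SE 0.584, edgeR adjusted p = 0.0243). Of all genes tested, 1.38% had a larger log2 fold change.

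Fcgr3, the low-affinity activating receptor of macrophages and NK cells, was at 16.3, 33.9 and 34.0 TMM-scaled CPM on NCD and at 172, 121 and 186 on HFD. Relative to their mean, its HFD mice lay closer together than those of the other 4 genes, and HFD replicate 1 was not the lowest of them. Means were 28.1 ± 10.2 and 160 ± 34.3 (SD, n = 3), a log2 fold change of 2.51 (SE 0.351, edgeR adjusted p = 0.0223), and 2.25 without NCD replicate 1 (SE 0.224, edgeR adjusted p = 0.00659).

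Fcgr4, which binds IgG2 subclasses on monocytes, macrophages and neutrophils, was at 5.02, 9.92 and 6.03 TMM-scaled CPM on NCD and at 34.7, 47.9 and 76.3 on HFD. It rose from 6.99 ± 2.58 to 53.0 ± 21.2 (SD, n = 3), a log2 fold change of 2.92 (SE 0.405, edgeR adjusted p = 0.0223), and 2.75 without NCD replicate 1 (SE 0.428, edgeR adjusted p = 0.0133). With Fcgr1 it had the largest changes of the group.

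Fcgr2b, the inhibitory receptor, was at 15.7, 35.1 and 31.7 TMM-scaled CPM on NCD and at 70.5, 113 and 194 on HFD. The HFD mice stood in the same order as for Fcgr1 and Fcgr4. Means were 27.5 ± 10.4 and 126 ± 62.5 (SD, n = 3), a log2 fold change of 2.19 (SE 0.473, edgeR adjusted p = 0.0477), and 1.93 without NCD replicate 1 (SE 0.444, edgeR adjusted p = 0.0343). It had the smallest change of the 5 and lay closest to the threshold, which it missed with total counts alone (edgeR adjusted p = 0.0553) and with no filter on low counts (edgeR adjusted p = 0.0565). Of its 50-base stretches of transcript, 4.38% also occurred in another gene, as did 9.58% of those of Fcgr3, all shared with Fcgr2b, and an antisense gene, Gm38204, overlaps 1 of its exons. The authors' rule for such reads was not given in the sources used here, and the split between Fcgr2b and Fcgr3 is uncertain to that extent.

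Fcer1g, the gamma chain that the activating receptors share with other immune receptors, was at 18.2, 42.7 and 37.6 TMM-scaled CPM on NCD and at 153, 163 and 252 on HFD. It rose from 32.8 ± 12.9 to 189 ± 54.6 (SD, n = 3), a log2 fold change of 2.53 (SE 0.390, edgeR adjusted p = 0.0249), and 2.25 without NCD replicate 1 (SE 0.274, edgeR adjusted p = 0.00818). Its change was thus close to that of Fcgr3.

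**Figure D2:**
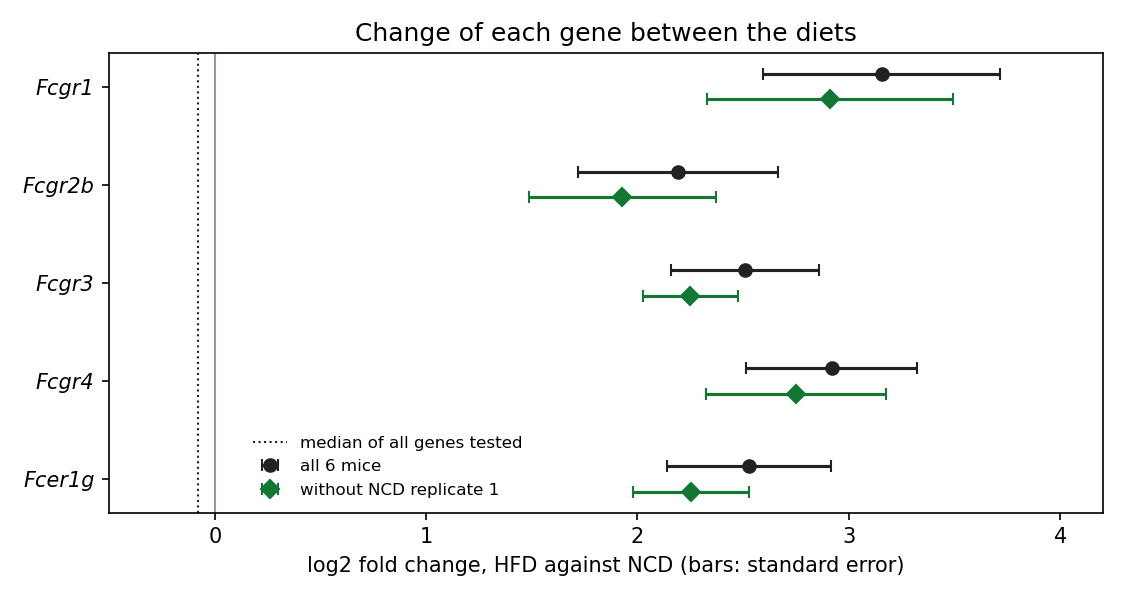
Log2 fold change of each gene, HFD against NCD, with bars of 1 standard error, for all 6 mice (black circles) and without NCD replicate 1 (green diamonds). Fcgr1 lies highest at 3.16 and Fcgr2b lowest at 2.19, and each green value is a little lower than its black one, all far from the dotted median of all genes at -0.08.

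Directions held whichever mouse was left out, but the calls did not. Without NCD replicate 2 or 3 or HFD replicate 1, 2 or 3, each taken out alone, none of the 5 genes passed. The edgeR adjusted p ran from 0.0557 for Fcgr1 and Fcgr4 without HFD replicate 1 to 0.145 for Fcgr2b without HFD replicate 3. Between 2 and 7 of all genes passed in these fits. The 5 genes had an unadjusted p under 0.05 each time, as did 2988 to 4345 of the 15433 to 15764 genes tested. These fits were run with edgeR alone.

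Levels of different genes were compared per exon length, as TMM-scaled FPKM. Fcer1g was the most abundant of the 5 transcripts in every mouse, at 24.3, 57.0 and 50.3 on NCD and 204, 218 and 337 on HFD. Fcgr3 was next in every mouse, at 12.1, 25.2 and 25.3 on NCD and 128, 90.0 and 138 on HFD. Fcgr1 was at 3.85, 9.0 and 6.55 on NCD and 25.3, 56.5 and 91.3 on HFD. On NCD the ranges of Fcer1g and Fcgr3 touched across mice (24.3 for the lowest Fcer1g and 25.3 for the highest Fcgr3), although Fcer1g was the higher within each mouse. On HFD Fcer1g stood clear of Fcgr3, and the lowest Fcgr3 (90.0) and the highest Fcgr1 (91.3) overlapped.

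Fcgr4 was at 4.0, 7.90 and 4.80 TMM-scaled FPKM on NCD and 27.7, 38.1 and 60.8 on HFD, and Fcgr2b at 4.13, 9.22 and 8.33 on NCD and 18.5, 29.7 and 50.8 on HFD. On NCD the ranges of Fcgr1, Fcgr2b and Fcgr4 overlapped across mice, although with exon union lengths Fcgr2b was above both others within each mouse. Fcgr2b ranked 3 of 5 in each NCD mouse and last in each HFD mouse. Its place depended on the length used: with its shortest annotated transcript (1084 bases, against 3810 for the union of its exons), a setting added after the data were seen, it ranked 2 of 5 in every mouse but HFD replicate 1, where it ranked 3.

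As shares of the 4 receptors' summed FPKM, Fcgr2b made up 17.2%, 18.0% and 18.5% on NCD and 9.29%, 13.9% and 14.9% on HFD, so that every HFD mouse was lower than every NCD mouse. With the shortest transcript its shares were 41.9%, 43.3% and 44.1% on NCD and 26.2%, 35.9% and 37.9% on HFD, again without overlap. Fcgr3 made up 50.2%, 49.1% and 56.2% on NCD and 64.1%, 42.0% and 40.6% on HFD. HFD replicate 1 therefore differed from the other HFD mice, with the highest Fcgr3 share and, at 12.7% against 26.4% and 26.8%, the lowest Fcgr1 share of its group.

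**Figure D3:**
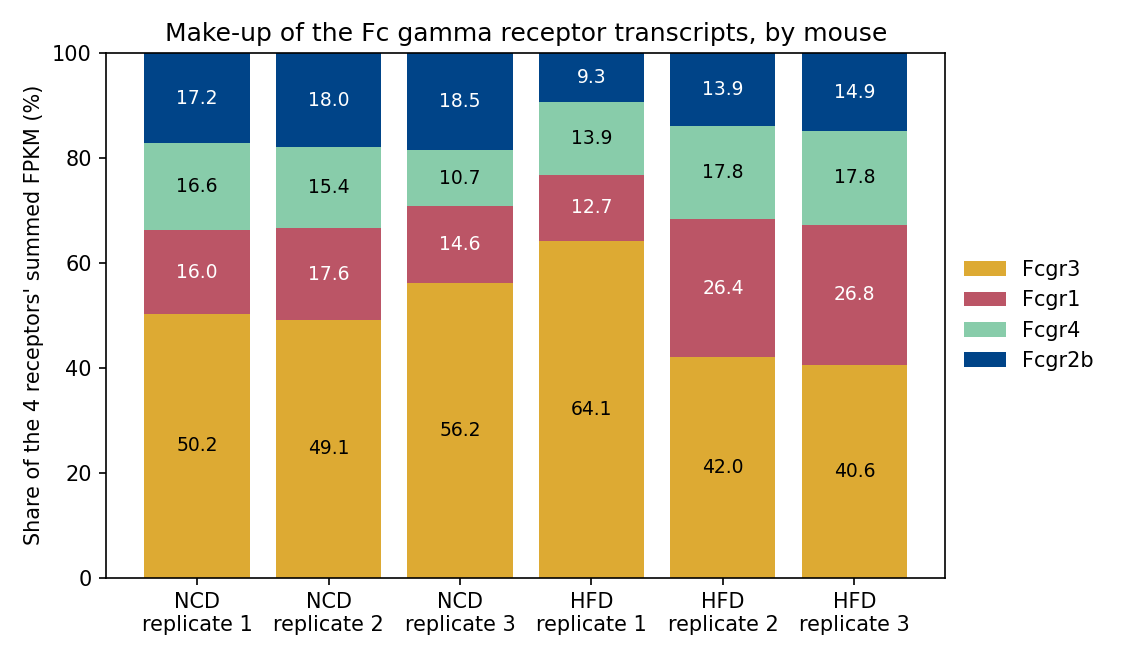
Share of each receptor in the summed FPKM of Fcgr1, Fcgr2b, Fcgr3 and Fcgr4 (%), 1 bar per mouse, with exon union lengths. The Fcgr2b segment is narrower in each HFD mouse than in each NCD mouse, and HFD replicate 1 has the widest Fcgr3 segment (64.1%).

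Whether the receptors changed by different amounts was asked with 7 ratios within a library, which do not depend on the scaling between mice, by two-sided exact permutation tests adjusted over the 7. With 3 mice against 3 no p can fall below 0.1. The Fcgr1 to Fcgr2b ratio was 0.931, 0.976 and 0.786 on NCD and 1.37, 1.90 and 1.80 on HFD, higher in every HFD mouse by 0.90 on the log2 scale (exact permutation p = 0.1, adjusted p = 0.233). The Fcgr4 to Fcgr2b ratio, at 0.968, 0.856 and 0.576 on NCD and 1.49, 1.28 and 1.20 on HFD, was likewise higher in every HFD mouse, by 0.76 (exact permutation p = 0.1, adjusted p = 0.233). The Fcgr2b to Fcer1g ratio was lower in every HFD mouse, by 0.43 on the log2 scale, at 0.170, 0.162 and 0.166 on NCD and 0.0906, 0.136 and 0.151 on HFD (exact permutation p = 0.1, adjusted p = 0.233). These 3 ratios separated the diets completely, at the smallest p the design allows, and none passed after adjustment.

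The other 4 ratios overlapped between the diets. Fcgr3 to Fcgr2b was 2.92, 2.73 and 3.03 on NCD and 6.90, 3.03 and 2.72 on HFD, a log2 difference of 0.41 (exact permutation p = 0.7) that rested on HFD replicate 1 and was -0.0092 without it. Fcgr3 to Fcer1g differed by -0.02 (exact permutation p = 1), Fcgr1 to Fcer1g by 0.47 (exact permutation p = 0.4) and Fcgr4 to Fcer1g by 0.32 (exact permutation p = 0.3), all on the log2 scale. The summed activating receptors over Fcgr2b came to 4.82, 4.56 and 4.39 on NCD and 9.76, 6.22 and 5.71 on HFD with the union of exons, and to 1.39, 1.31 and 1.27 on NCD and 2.81, 1.78 and 1.64 on HFD with the shortest transcripts, higher in every HFD mouse with either length. The size of each ratio above likewise depends on the lengths used, and its log2 difference between the diets does not. Fcer1g over the same sum was 1.22, 1.36 and 1.37 on NCD and 1.13, 1.18 and 1.16 on HFD.

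The cells that carry these receptors were read from marker lists. Of 14 macrophage genes, 8 rose, 0 fell and 6 did not pass (13 had a positive log2 fold change, median 1.95), and 12 rose without NCD replicate 1. Ctss, a lysosomal protease, was at 91.6, 167 and 118 TMM-scaled CPM on NCD and 1363, 897 and 1196 on HFD (log2 fold change 3.20, edgeR adjusted p = 0.0212), and Lgals3, galectin-3, had a log2 fold change of 3.34 (edgeR adjusted p = 0.0341). Lyz2, lysozyme, at 1.65, did not pass (edgeR adjusted p = 0.0823). The list summed to between 769 and 1690.3 TMM-scaled CPM on NCD and to 7539.8, 4634 and 5592 in HFD replicates 1, 2 and 3.

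HFD replicate 1 thus had the highest macrophage sum and the lowest Fcgr1, Fcgr2b, Fcgr4 and Fcer1g of its group. Set against the mean log2 level of the 14 macrophage genes in the same mouse, as a description with no test, Fcgr3 was higher in every HFD mouse, by 0.48 on the log2 scale (0.44 without NCD replicate 1). Fcgr1 was at -2.08, -1.93 and -2.11 on NCD and -2.41, -0.62 and -0.21 on HFD on that scale, so that HFD replicate 1 lay below all NCD mice and the other HFD mice above them. Fcgr2b was at -1.44, -1.35 and -1.22 on NCD and -2.31, -0.99 and -0.49 on HFD, with group means only 0.07 apart. Fcgr4 and Fcer1g differed by 0.76 and 0.50 and overlapped between the diets. The 14 genes themselves ranged in log2 fold change from -0.07 (Cd163) to 3.34 (Lgals3), against 2.51 for Fcgr3. Adgre1, Cd68, Itgam, Itgax, Ctss and Lgals3 had larger values than Fcgr3, and the rest smaller ones. These differences therefore depend on which macrophage genes are averaged.

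**Figure D4:**
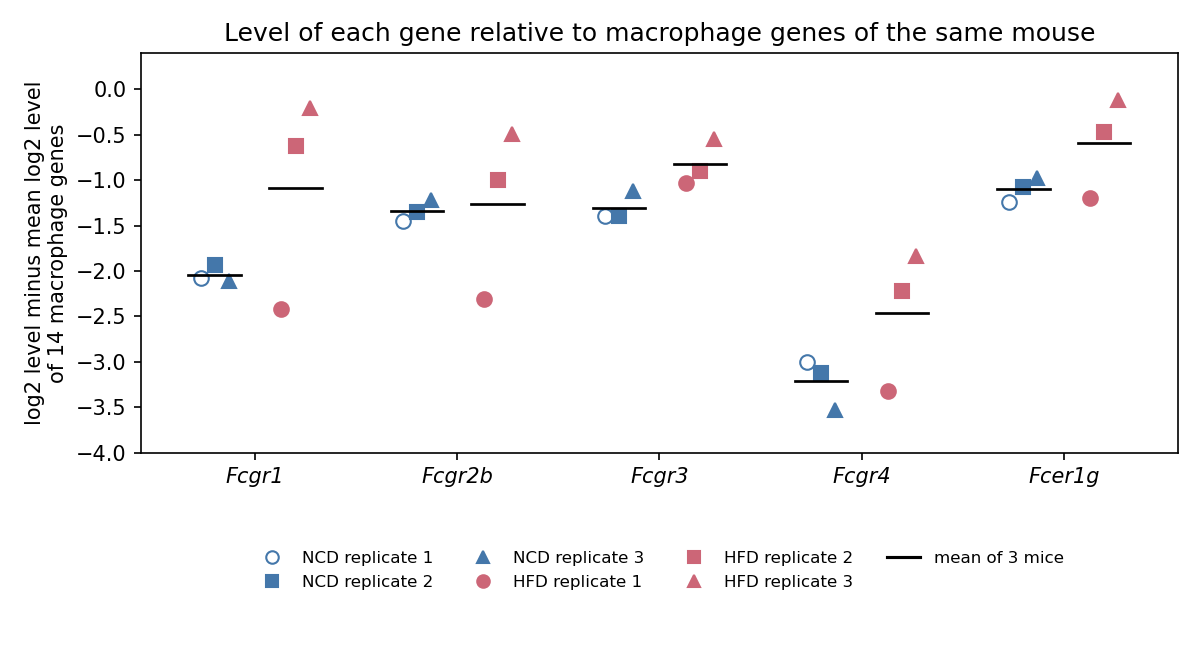
Log2 level of each gene minus the mean log2 level of 14 macrophage genes in the same mouse, with NCD in blue, HFD in red and a line at the mean of 3 mice. HFD replicate 1 (red circle) lies within or below the NCD mice for every gene but Fcgr3, and HFD replicates 2 and 3 lie above them.

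The marker lists of other cell types gave mixed results. Monocyte genes rose in 2 of 8 cases (Ccr2 and Treml4) and in 3, with Spn, without NCD replicate 1. Ccr2 is the chemokine receptor for entry into tissue and was at 38.4, 94.0 and 64.7 TMM-scaled CPM on NCD and 186, 288 and 525 on HFD (log2 fold change 2.34, edgeR adjusted p = 0.0471). Neutrophil genes summed to between 0.183 and 1.92 TMM-scaled CPM on NCD and to 4.96, 92.7 and 283 in HFD replicates 1, 2 and 3. This was the order of Fcgr1, Fcgr2b, Fcgr4 and Fcer1g. The sums of monocyte (386, 699 and 1062), mast cell (35.5, 55.4 and 95.8) and dendritic cell genes (26.1, 32.9 and 35.6) had the same order, and those of the other cell types did not. The order of the mast cell sum rested on Hdc, histidine decarboxylase (2.98, 31.5 and 74.6). No other gene of that list had this order, and Kit (20.6, 18.2 and 15.5) and Mcpt4 (2.64, 1.95 and 1.32) had the reverse. With 6 mice none of the 4 neutrophil genes tested passed by edgeR (4 had an unadjusted p under 0.05, DESeq2 called 5 of the list and limma voom with sample weights 2), and the defining marker Ly6g was at 0 in NCD mice and HFD replicate 1 and at most 0.175 in the others. Without NCD replicate 1, 1 of 5 tested passed, the calprotectin subunit S100a8 (log2 fold change 5.36, edgeR adjusted p = 0.0492). Of 8 NK cell genes, 1 rose (Gzma, granzyme A, log2 fold change 1.28, edgeR adjusted p = 0.0494) and 2, with Prf1, rose without NCD replicate 1, with sums of 14.4 to 18.5 on NCD and 24.2 to 30.4 on HFD. B cell genes summed to between 8.16 and 26.2 on NCD and between 12.3 and 27.8 on HFD, and none of 8 passed by edgeR with or without NCD replicate 1 (with 6 mice 1 had an unadjusted p under 0.05, and DESeq2 and limma voom called 0). Adipocyte genes summed to between 5491 and 28795 on NCD and between 11654 and 15336 on HFD, the lowest being NCD replicate 1. With 6 mice none of 9 passed by edgeR (2 were lower at an unadjusted p under 0.05, and DESeq2 called 2 and limma voom 4 lower, median log2 fold change -0.54). Without NCD replicate 1, 5 of 9 fell (Plin1, Lipe, Pparg, Retn and Cfd, median of the list -0.95), among them Pparg, the adipocyte transcription factor, by 1.11 on the log2 scale (edgeR adjusted p = 0.0123) and Plin1, the lipid droplet coat protein, by 1.17 (edgeR adjusted p = 0.0234). Of mast cell (8), dendritic cell (7) and plasma cell (6) genes none passed by edgeR with 6 mice (4, 3 and 2 had an unadjusted p under 0.05, DESeq2 called 1, 3 and 2, and limma voom 3 of each), and without NCD replicate 1 Sdc1 rose and Jchain fell among the plasma cell genes and no gene of the other 2 lists passed by edgeR. The limma voom calls were 3 lower and 0 higher for mast cell genes. They were 1 lower and 2 higher for dendritic cell genes, and 2 lower and 1 higher for plasma cell genes. Of 8 endothelial genes 1 rose (Stab2), and 3 rose without NCD replicate 1 (Stab2, Cldn5 and Pecam1). The part of any of these cells in the rise of the receptors was not tested.

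Other receptors for antibodies were also followed. None of the 12 tested of 14 listed passed by edgeR in either direction (3 had an unadjusted p under 0.05, and DESeq2 and limma voom each called 2), with a median log2 fold change of 0.12. Without NCD replicate 1 none of 13 passed by edgeR (median 0.19). Fcgrt, the neonatal receptor that recycles IgG, was the most abundant at 58.5, 160 and 185 TMM-scaled CPM on NCD and 202, 210 and 175 on HFD (log2 fold change 0.54, edgeR adjusted p = 0.421). Trim21, the cytosolic antibody receptor, was between 14.5 and 18.8 on NCD and between 18.8 and 24.9 on HFD (log2 fold change 0.36, edgeR adjusted p = 0.255). Fcer1a and Ms4a2, which form the IgE receptor of mast cells with Fcer1g, were under 1 TMM-scaled CPM in every mouse. Of the immunoglobulin genes listed, Jchain alone was analysed here, at 5.12, 21.5 and 36.5 TMM-scaled CPM on NCD and 4.18, 7.79 and 12.3 on HFD (log2 fold change -1.38, edgeR adjusted p = 0.260, and -1.83, edgeR adjusted p = 0.0459, without NCD replicate 1).

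The gamma chain also serves other receptors, and its relative DAP12 (Tyrobp) signals in the same way. Of 15 tested genes of such partners and of the DAP12 system, 6 rose and 0 fell (median log2 fold change 2.38), and 7 rose without NCD replicate 1. Tyrobp was at 20.0, 41.4 and 31.2 TMM-scaled CPM on NCD and 254, 138 and 198 on HFD (log2 fold change 2.67, edgeR adjusted p = 0.0219). Trem2, the lipid-sensing receptor that pairs with DAP12, was at 4.38, 9.73 and 9.14 on NCD and 167, 58.1 and 73.2 on HFD (log2 fold change 3.68, edgeR adjusted p = 0.0235). Both were highest in HFD replicate 1, unlike Fcer1g. Csf2rb, the shared chain of the receptors for GM-CSF, IL-3 and IL-5, rose by 1.54 on the log2 scale (edgeR adjusted p = 0.0300).

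Some signalling genes on both sides of the balance rose, and others did not pass. Of all genes tested, 5.58% were called higher on HFD with 6 mice and 10.7% without NCD replicate 1. Of 29 genes that carry the activating signal, 18 rose and 0 fell (median log2 fold change 1.95, 22 without NCD replicate 1). Syk, the kinase that binds the phosphorylated ITAM, was at 14.5, 35.1 and 31.9 TMM-scaled CPM on NCD and 231, 134 and 179 on HFD (log2 fold change 2.74, edgeR adjusted p = 0.0235). Lyn, the Src family kinase that phosphorylates the motif, was at 35.0, 50.8 and 47.5 on NCD and 128, 136 and 188 on HFD (log2 fold change 1.76, edgeR adjusted p = 0.0219). Pik3r5, a regulatory subunit of phosphoinositide 3-kinase gamma, had the largest rise of those that passed, 3.18 on the log2 scale (edgeR adjusted p = 0.0192). Cybb, the oxidase subunit of the respiratory burst, rose by 1.94 (edgeR adjusted p = 0.0375) and the adaptor Grb2 by 0.76 (edgeR adjusted p = 0.0465), while the adaptor Shc1, at -0.17, did not pass (edgeR adjusted p = 0.528).

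Of 15 inhibitory genes, 9 rose and 0 fell (median log2 fold change 1.36, 10 without NCD replicate 1). Inpp5d, which encodes the SHIP1 phosphatase recruited by Fcgr2b, was at 16.3, 29.3 and 23.5 TMM-scaled CPM on NCD and 83.5, 84.5 and 119 on HFD (log2 fold change 2.05, edgeR adjusted p = 0.0219). The ITIM receptors Lilrb4a, Pirb and Sirpa rose by 3.36, 2.88 and 1.84 on the log2 scale (edgeR adjusted p = 0.0212, 0.0212 and 0.0240). Ptpn11, the widely expressed phosphatase SHP2, was at -0.64 (edgeR adjusted p = 0.120). Of 20 genes of the phagocytic cup, the actin structure that engulfs coated particles, 9 rose and 0 fell (median 1.08, 14 without NCD replicate 1), led by the myosin Myo1f at 2.96 (edgeR adjusted p = 0.0224). The more widely expressed Cfl1, Cdc42 and Gsn, at 1.06, 0.41 and -0.34, did not pass (edgeR adjusted p = 0.0683, 0.352 and 0.723).

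**Figure D5:**
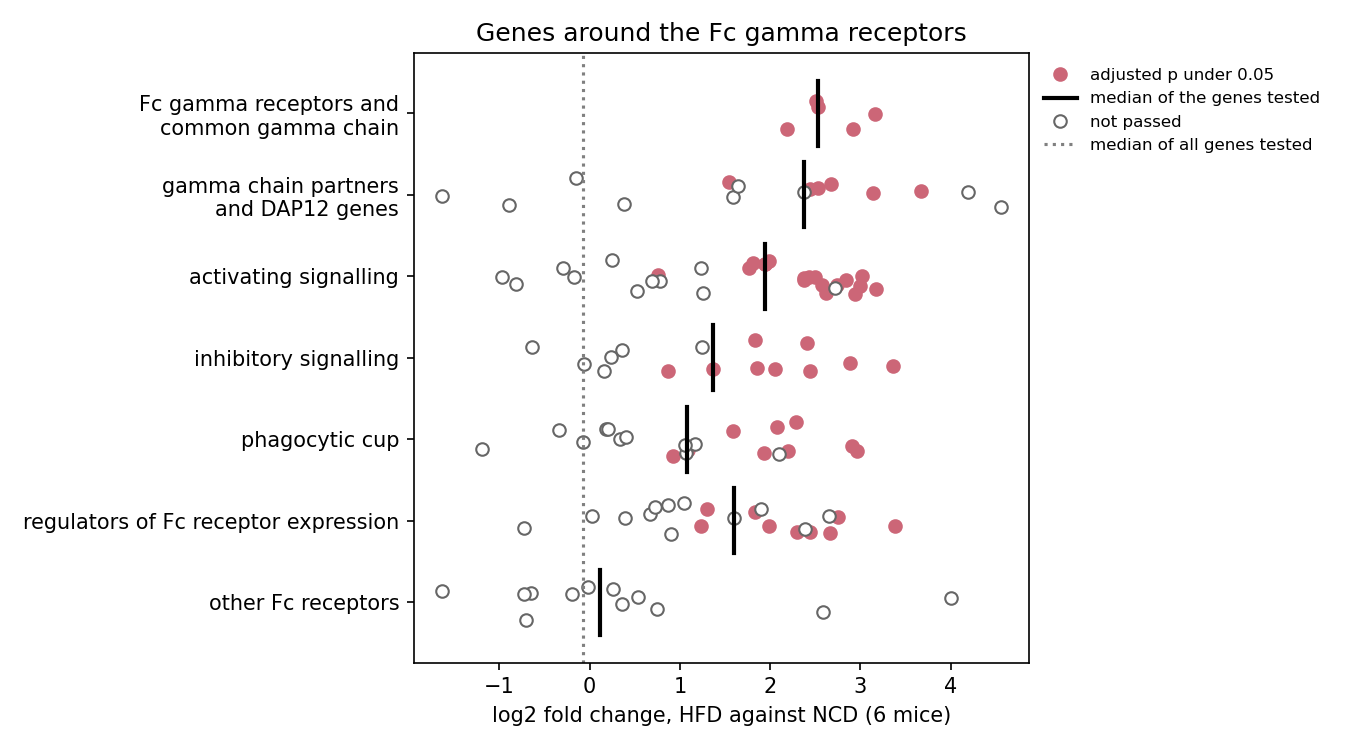
Log2 fold change of each tested gene by list (points, filled red where the adjusted p was under 0.05), with a black line at the list's median and a dotted line at the median of all genes. The medians of the receptors and of the signalling lists lie between 1.08 and 2.53, and that of the other Fc receptors lies at 0.12.

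Of 21 tested genes known to regulate Fc receptor expression, 9 rose and 0 fell (median log2 fold change 1.60), and without NCD replicate 1 13 rose and 1, Cebpa, fell. Spi1, which encodes PU.1, whose core letters were searched for above, was at 7.95, 18.3 and 13.4 TMM-scaled CPM on NCD and 88.2, 70.5 and 94.0 on HFD (log2 fold change 2.67, edgeR adjusted p = 0.0214). C5ar1, the complement receptor whose ligand shifts the balance toward activating receptors, was at 7.73, 19.1 and 19.5 on NCD and 163, 129 and 191 on HFD (log2 fold change 3.38, edgeR adjusted p = 0.0212). Of the interferon gamma genes of the list, the receptor chain Ifngr2 rose by 1.24 on the log2 scale (edgeR adjusted p = 0.0332). The other receptor chain, Ifngr1, had a log2 fold change of 0.72 and did not pass (edgeR adjusted p = 0.253), and Ifng was under 0.5 TMM-scaled CPM in every mouse. The counts of 0 falls in these lists are by edgeR with 6 mice. At an unadjusted p under 0.05, 1 gene of the partner list and 1 inhibitory gene were lower, DESeq2 called 1 inhibitory gene lower, and limma voom called 1 lower in each of the activating, inhibitory, phagocytic cup and regulator lists.

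The profiles of the 5 genes over the 6 mice were compared by the root mean square difference of their centred log2 levels, a measure that includes the difference between the diets. Among the 5, Fcgr3 and Fcer1g were most alike (0.210) and Fcgr1 and Fcgr3 least alike (0.627). Among 11391 other genes the most alike to Fcgr1 were Gpr35 (0.129), B430306N03Rik (0.137) and Ms4a6d (0.190), and to Fcgr2b AB124611 (0.0779), Srgn (0.124) and Ccr2 (0.143). For Fcgr3 they were Dok2 (0.0660), Cerk (0.0760) and Tnfaip2 (0.0883), and for Fcer1g Ncf1 (0.0889), Rab3il1 (0.0936) and Fxyd5 (0.109). For Fcgr4, Tlr1 (0.0671) was the nearest and Pstpip1 (0.148) was also close.

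The neighbours of the receptor genes on chromosome 1 were mostly near 0. Within 100000 bp of the stretch from Fcgr2b to Fcer1g, 17 other genes were tested, with a median log2 fold change of -0.0025 and a range from -1.44 to 4.0, the highest being Fcrlb, at under 2 TMM-scaled CPM in every mouse. One of them, the protease gene Adamts4, rose (log2 fold change 2.60, edgeR adjusted p = 0.0454), and Sdhc, a subunit of the respiratory chain, had a log2 fold change of -0.39 (edgeR adjusted p = 0.386). Without NCD replicate 1, 1 of the 17 rose, again Adamts4, and 2 fell, among them Sdhc (log2 fold change -0.63, edgeR adjusted p = 0.0233).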

How the data were processed

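The table deposited by the authors held raw read counts, a column for each mouse and a row for each NCBI gene identifier. The submitters' processing notes name bcl2fastq 2.20.0, Trimmomatic, HISAT2 2.1.0, StringTie 1.3.4d, DESeq2 and GRCm38, with no roles given. The labels name a stranded TruSeq mRNA kit, with the counting rule not given in the sources used here. HFD replicate 3 carries another number in its column name.

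Symbols of 19742 of 19790 identifiers came from RefSeq GRCm38.p6, and identifiers without a symbol held 0.629% of the counts. Counts were filtered with filterByExpr (minimum 10, total 15), scaled by TMM and tested in edgeR 4.0.16 under R 4.3.3 (glmQLFit, then glmQLFTest). The SE was the absolute log2 fold change over the square root of F. FPKM used exon unions of GENCODE vM21 basic transcripts. Log2 levels had 0.5 added. NCD replicate 1 had a TMM factor of 0.496. Replicates differed by more than sampling noise (111 to 3438 in chi-square per degree of freedom, over pairs). At this depth the spread between mice, not counting error, limits precision for the 5 genes. The procedure was tested on simulated data.

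The 5 genes, the lists and the tests were chosen with earlier results of these data known. Genes were named as the 3 most abundant of a list, its largest rise and fall past the threshold, or a textbook tie to the receptors. Ly6g, Fcer1a, Ms4a2, Ifng, Ifngr2, the neighbours on chromosome 1 and list genes that passed only without NCD replicate 1 were named after their values were seen. So were Cd163, Adgre1, Cd68, Itgam and Itgax. A few genes that the rule names are not reported here. Alternatives were leaving out each mouse, median-of-ratios scaling, total counts, removal of the 11 seminal vesicle genes, no filter, DESeq2 1.42.0, limma 3.58.1 voom with sample weights and the replicate number as a block.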

Additional observations from a re-analysis of the deposited data

How the results depend on the processing

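The log2 fold changes of the 5 genes were positive under all 13 alternatives. Leaving out each mouse in turn gave 2.67 to 3.52 for Fcgr1, 1.75 to 2.48 for Fcgr2b, 2.25 to 2.69 for Fcgr3, 2.57 to 3.26 for Fcgr4 and 2.25 to 2.76 for Fcer1g, and all 5 calls remained without NCD replicate 1 alone. All genes past the threshold numbered 1139 with 6 mice (4524 at an unadjusted p under 0.05). There were 3234 without NCD replicate 1, and 2 to 7 when any other mouse was left out. Each fit that left out a mouse held the same number of mice, and the cause of the difference between them was not tested. DESeq2 called 3853 genes and limma voom with sample weights, which gave NCD replicate 1 a weight of 0.134, called 5570. Higher genes were 74.6% of the calls with 6 mice, 51.5% without NCD replicate 1, 54.5% with DESeq2 and 50.7% with limma voom. All 5 genes passed with both tools, with median-of-ratios scaling and with the seminal vesicle genes removed. Fcgr2b missed the threshold with total counts (log2 fold change 2.59), which moved the median of all genes to 0.45, and with no filter (2.201). The cause was not tested.

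With the replicate number as a block, 12 genes passed (41.7% of them higher), and the 5 genes kept their direction and had an edgeR adjusted p of 0.0675 each (log2 fold changes of Fcgr1 3.05, Fcgr2b 2.15, Fcgr3 2.56, Fcgr4 2.90 and Fcer1g 2.58). Same-numbered mice did not deviate together (r = -0.049, -0.025 and -0.020 across genes), and no mouse correlated best with its own number. With 3 mice per diet, such correlations cannot show whether same-numbered mice shared a batch.

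Leaving out each mouse in turn gave log2 differences of 0.81 to 1.05 for the Fcgr1 to Fcgr2b ratio, -0.0092 to 0.66 for Fcgr3 to Fcgr2b, 0.54 to 0.91 for Fcgr4 to Fcgr2b, 0.27 to 0.84 for Fcgr1 to Fcer1g, -0.58 to -0.21 for Fcgr2b to Fcer1g and 0.10 to 0.50 for Fcgr4 to Fcer1g. That of Fcgr3 to Fcer1g ranged from -0.22 to 0.084 and turned positive without NCD replicate 1 (0.0070), NCD replicate 3 (0.016), HFD replicate 2 (0.081) or HFD replicate 3 (0.084).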

Other observations

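Some genes of the same lists were far higher in HFD replicates 2 and 3 than in HFD replicate 1, and were picked after their values were seen. Clec4e, the gamma chain-coupled receptor Mincle, was at 0.244, 0.903 and 1.67 TMM-scaled CPM on NCD and at 1.21, 18.2 and 32.9 on HFD, in the order of the replicates (log2 fold change 4.19, edgeR adjusted p = 0.0921). Hdc, histidine decarboxylase, was at 2.71, 3.24 and 3.44 on NCD and 2.98, 31.5 and 74.6 on HFD (log2 fold change 3.53, edgeR adjusted p = 0.0884). Il4ra, a receptor chain for IL-4 and IL-13, was at 18.8, 42.7 and 52.0 on NCD and 74.0, 226 and 414 on HFD (log2 fold change 2.65, edgeR adjusted p = 0.0705). None of the 3 passed the threshold. Itgax, which encodes CD11c, was instead highest in HFD replicate 1, at 13.9, 10.96 and 7.18 on NCD and 169, 36.0 and 43.1 on HFD (log2 fold change 2.96, edgeR adjusted p = 0.0549), and 3.20 without NCD replicate 1 (edgeR adjusted p = 0.0441).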
